A study of Sus scrofa with 9 samples.

Results

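CD4+CD8+ T cells of sow blood, sorted as CD3+CD4+CD8+ and called DP here, were compared with CD3+CD4+ T cells, called the CD4 fraction. The comparison used every array labelled with either sorted fraction, which was 6 of the 9 arrays in the series, 3 per fraction. The remaining 3 arrays held CD3+CD8+ cells, called the CD8 fraction, and are given only as a reference level. Per the labels, blood mononuclear cells were isolated on Percoll and sorted by CD3, CD4 and CD8, and 25 ng of total RNA per sample was amplified before hybridisation to an array of a single colour. The replicates are called biological. No genotype, treatment or age was given in the sources used here, and neither were the antibodies, the sort purity or the number of sows. The p-values measure the spread between these samples.

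CD4 and CD8 are coreceptors that bind MHC class II and class I molecules while a T cell reads its antigen. In most mammals a mature T cell keeps one of them, but pigs have many blood T cells with both. In pigs these cells are known as antigen-experienced helper cells, which take up CD8 alpha on activation, keep it as memory cells, and can carry MHC class II molecules themselves.

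Levels are log2 processed signals, each set relative to the 75th percentile of its own array, so that 0 is the level of a probe at that percentile. Differences are DP minus CD4 fraction on that scale. A gene is said to be called higher or lower where limma's adjusted p was under 0.05 over the 15497 tested probes. Levels of different probes are not set against each other, since probes differ in brightness. In sorted bulk samples, more cells with a transcript and more transcript per cell cannot be told apart.

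The 75th percentile of the signal lay between 15.2 and 84.1 over the 6 arrays, and between 32.6% and 53.7% of the probes were above background. No spot was saturated. The arrays lay on 3 slides. DP array 1 was alone on the first, DP array 2 and CD4 array 2 shared the second, and DP array 3 and CD4 arrays 1 and 3 shared the third.

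The labels were first set against the sorting markers. CD8A, which encodes CD8 alpha, was measured at 4.32, 2.84 and 3.26 on the DP arrays and at 0.29, 0.94 and -0.40 on the CD4 arrays. No DP array overlapped a CD4 array. The difference was 3.20 (standard error, SE, 0.49, 9.18-fold, adjusted p = 0.0174), and the CD8 arrays stood at 5.81, 5.53 and 4.72. The call was lost without DP array 1 (adjusted p = 0.119) and without CD4 array 3 (adjusted p = 0.0885). CD4 was at 2.78, 2.54 and 1.09 in DP and at 2.35, 1.92 and 1.47 in the CD4 fraction, which overlap. The CD4 difference was 0.22 (SE 0.64) and was not called, with a second probe at -0.33. Its sign turned in some settings, so these arrays give no direction for it. In the CD8 fraction, CD4 was above background on 1 of 3 arrays. The CD3 chains, which carry the signal of the T cell receptor, overlapped between the fractions. CD3E differed by 0.23, CD3G by -0.18, CD3D by -0.03 and CD247 by -0.40, and none was called. The signs of CD3D, CD3E and CD3G turned under some settings, median scaling among them for CD3D and CD3G.

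**Figure D1:**
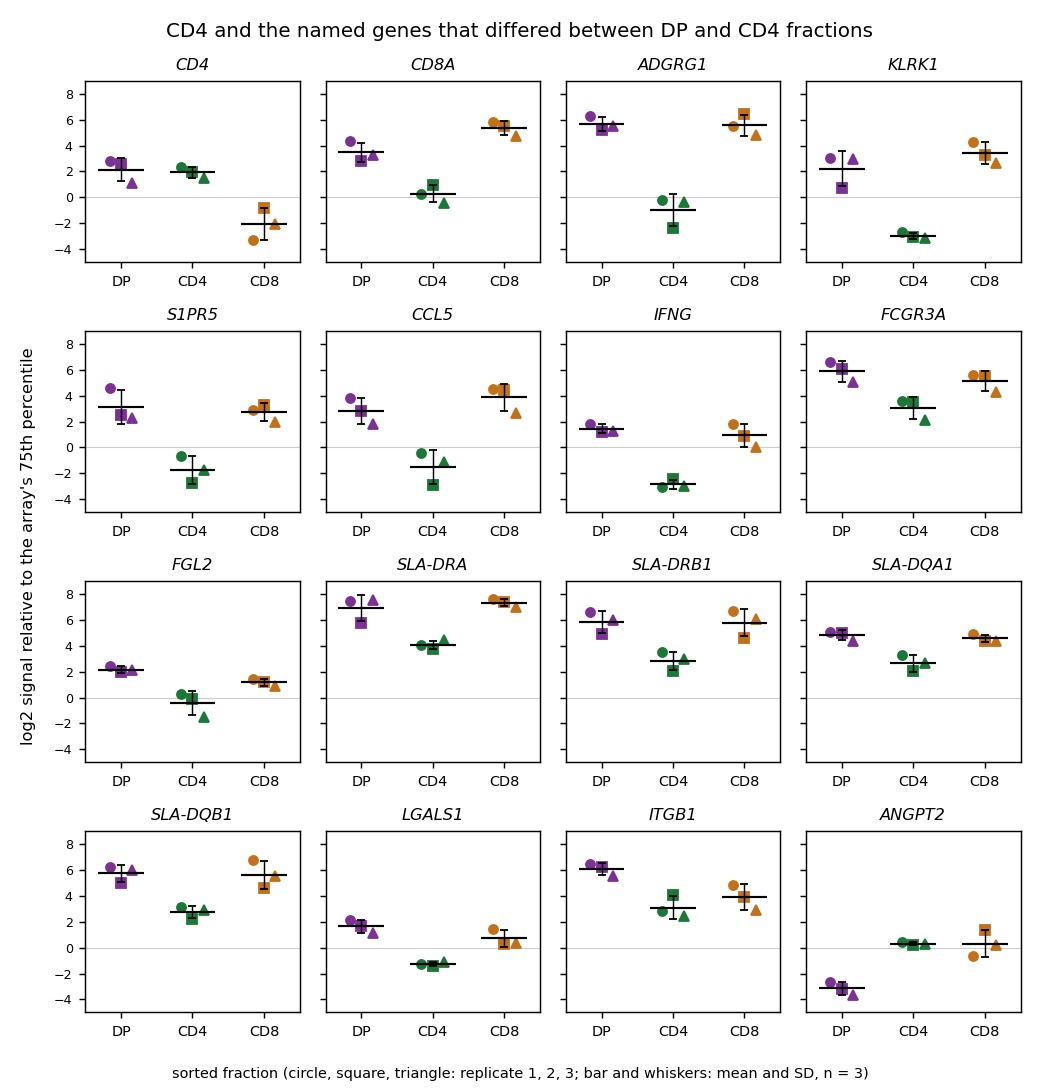
Levels of CD4 and of the 15 called genes on each array, as log2 signal relative to the 75th percentile of its array (vertical axis), in DP, the CD4 fraction and the CD8 fraction. Points are arrays, with the shape giving the replicate number, bars are means and whiskers SD (n = 3), and the DP points lie wholly above the CD4 points for 14 genes, wholly below them for ANGPT2, and overlap them for CD4.

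Across all tested probes, 56 were called (0.361%), 44 higher in DP (0.284%) and 12 lower (0.0774%). Without adjustment, 751 had a p under 0.05. All 3 DP arrays lay above all 3 CD4 arrays for 5.3% of tested probes and below them for 4.85%. Of the called probes, 27 carry a gene name and stand for 15 genes. Of those, 14 were higher in DP, namely CD8A, ADGRG1, KLRK1, FCGR3A, S1PR5, CCL5, IFNG, LGALS1, ITGB1, FGL2, SLA-DRA, SLA-DRB1, SLA-DQA1 and SLA-DQB1. ANGPT2 was the 1 that was lower. The DP and CD4 arrays overlapped for none of the 15. For 13 of the 14 higher genes, all but ITGB1, the lowest CD8 array was also above the highest CD4 array. Being above the CD4 fraction was thus not particular to DP for those 13. Of the 15 genes only ANGPT2 also passed between DP and the CD8 fraction. A probe entered the test through DP alone in 1875 cases and through the CD4 fraction alone in 1140. Of the 15 genes, ADGRG1, KLRK1, S1PR5, CCL5, IFNG and LGALS1 were above background on fewer than 3 CD4 arrays, so that their folds rest in part on signal near background, and ANGPT2 was so on no DP array; for these the filter itself favours a difference.

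The number of calls rested on single arrays. It was 8 without DP array 1, 14 without CD4 array 3, 23 without CD4 array 2, 35 without CD4 array 1 and 37 without DP array 2. Without DP array 3 it was 53. ADGRG1, KLRK1 and IFNG kept their call with each of the 6 arrays left out in turn. These 3 had entered the test through DP alone, and the tested probes were not chosen anew for these fits. Each of the other 12 lost its call without DP array 1, at adjusted p between 0.0620 and 0.317. With slide as a fixed block 2 probes were called, and ADGRG1 was the 1 gene among them (difference 6.40, adjusted p = 0.0358). All 15 genes kept their sign within the second slide and within the third, which had to follow since their DP and CD4 arrays do not overlap. For the 14 higher genes the difference was 1.90 to 7.56 within the second slide and 1.42 to 5.90 within the third.

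**Figure D2:**
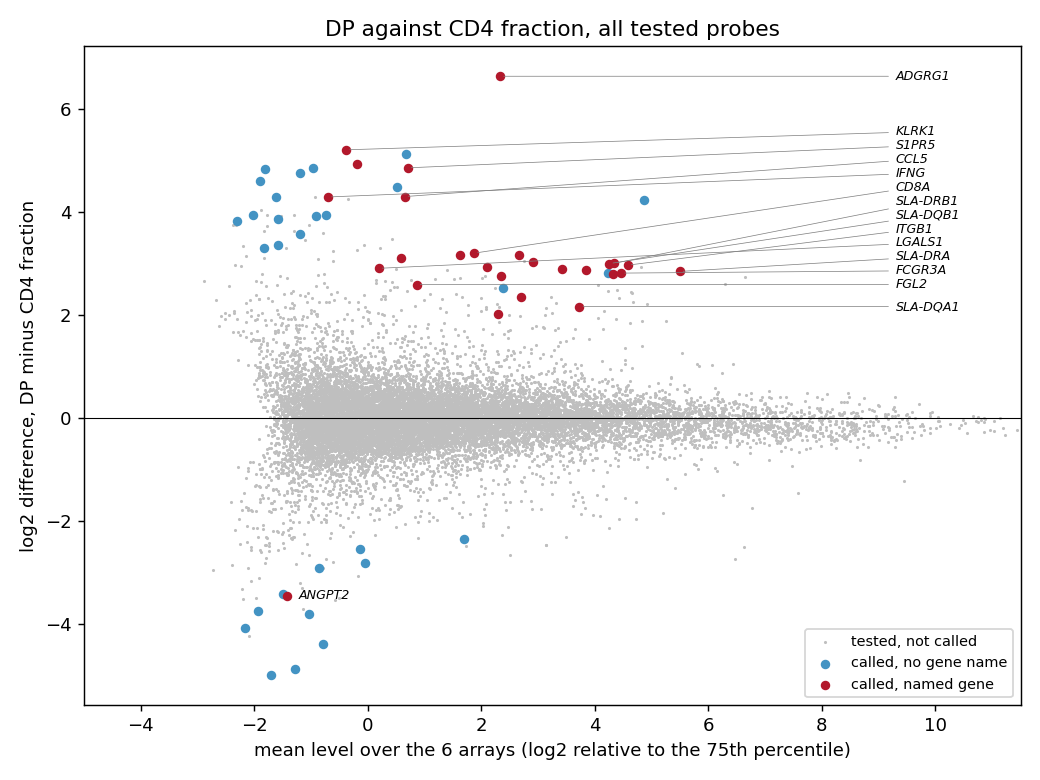
Difference in log2 level, DP minus CD4 fraction (vertical axis), against the mean level over the 6 arrays (horizontal axis, log2 relative to the 75th percentile) for the 15497 tested probes. Grey points were not called, red points are the 27 called probes with a gene name and blue points the 29 without one, and ADGRG1 lies highest at 6.64.

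The genes highest in DP over the CD4 fraction include receptors known from natural killer cells and cytotoxic T cells. Of the 6 tested genes of such receptors and their adaptors, 3 were called higher and 3 did not pass, with a median of 1.45 beside -0.02 over all tested probes. Through DP alone 3 of the 6 were tested, ADGRG1 and KLRK1 among them, and 1 through the CD4 fraction alone. Entry through DP alone favours a positive difference, so the count and the median rest in part on the filter. ADGRG1, an adhesion receptor of cytotoxic lymphocytes also known as GPR56, was at 6.27, 5.17 and 5.51 in DP. In the CD4 fraction it was at -0.20, -2.39 and -0.37, with 2 of 3 arrays above background. The 2 ranges are far apart, and the CD8 arrays, at 5.55, 6.41 and 4.78, span the range of DP. The difference was 6.64 (SE 0.60, 99.4-fold, adjusted p = 0.000942). With each CD4 array raised to at least its lowest signal above background, the fold was 68.7.

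KLRK1 encodes NKG2D, an activating receptor for ligands that stressed cells display. Its DP levels were 3.00, 0.69 and 2.98, and its CD4 levels were -2.70, -3.11 and -3.14, with 1 CD4 array above background. DP array 2 was the low one of its group, yet stood above every CD4 array. KLRK1 was higher by 5.21 (SE 0.63, 36.9-fold on the measured values, adjusted p = 0.00575), or 15.8-fold with the CD4 arrays raised in the same way.

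FCGR3A encodes CD16, the receptor by which killer cells bind antibody-coated targets. It was at 6.57, 6.02 and 5.02 in DP and at 3.59, 3.51 and 2.09 in the CD4 fraction, above background on all 6 arrays. The groups do not overlap, and 2 of its 3 tested probes were called. The difference of 2.81 (SE 0.54, 7.02-fold, adjusted p = 0.0494) sat close to the threshold, and it remained called with 1 of 6 arrays left out, DP array 3 (adjusted p from 0.0315 to 0.317 over the 6).

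The list of defining natural killer cell markers was measured beside these receptors. Of its 4 genes on the array, NCR1 and KLRB1 were above background on 0 of the 6 arrays. TYROBP, an adaptor of natural killer cell receptors, differed by 0.07 (SE 0.72) and was not called. Its sign turned without DP array 3. The summed linear level of the 4 genes was 0.583 to 4.79 in DP and 1.32 to 1.98 in the CD4 fraction, and these ranges overlap.

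No member of the cytotoxic granule list was called, with 8 tested and a median of 1.16. Through DP alone 2 of the 8 were tested, which favours a positive median. NKG7, a membrane protein of cytotoxic granules, was at 3.27, 2.32 and 1.57 in DP and at 1.27, 0.48 and 0.60 in the CD4 fraction. Those arrays do not overlap, but the difference of 1.60 (SE 0.49) had an adjusted p of 0.353. The granzymes, proteases that granules deliver into target cells, varied widely among CD4 arrays. GZMH was at 3.94, 3.29 and 2.92 in DP against -0.39, 3.49 and 0.59, and GZMB at 4.07, 4.33 and 1.69 against 1.47, 3.74 and -0.22. CD4 array 2 was within the DP range for both. GZMK was at 0.23, 2.55 and -0.91 against -4.05, -0.37 and -4.11, with 1 CD4 array above background. Its difference was 3.46 with an SE of 1.14, and the adjusted p was 0.460.

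Among secreted messengers, IFNG and CCL5 were called higher. IFNG, the signature cytokine of type 1 helper and cytotoxic cells, was at 1.85, 1.22 and 1.28 in DP and at -3.09, -2.45 and -2.99 in the CD4 fraction. One narrow band stood clear of the other, with 1 of 3 CD4 arrays above background. The difference was 4.29 (SE 0.52, 19.6-fold on the measured values, adjusted p = 0.00575), or 10.1-fold with the CD4 arrays raised to their lowest signal above background. IFNG was the 1 called gene of 5 tested cytokine genes, whose median was 2.35. TNF, a cytokine of inflammation, was at 3.73, 2.76 and 2.02 in DP and at 1.02, 0.60 and -0.14 in the CD4 fraction, apart but not called (adjusted p = 0.649). IL10, which restrains inflammation, differed by 2.72 with an SE of 1.11, its arrays overlapped, and it was not called. The median of the cytokine list moved to 1.36 without CD4 array 1, to 0.64 with normexp correction and to 0.38 over the genes above background on all 6 arrays, which leaves out IFNG and IL10.

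CCL5, a chemokine that draws effector and memory T cells, was at 3.81, 2.79 and 1.81 in DP and at -0.40, -2.93 and -1.15 in the CD4 fraction. No arrays overlapped, and the difference was 4.30 (SE 0.72, 19.7-fold, adjusted p = 0.0224), with 1 of 2 tested probes called. With the CD4 arrays so raised it was 12-fold. The adjusted p was 0.165 without DP array 1, and 0.0694, 0.0764 and 0.0663 without DP array 2, CD4 array 2 and CD4 array 3.

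Receptors that direct traffic between blood and tissue lay on both sides. Of 7 tested chemokine and homing receptors 1 was called, S1PR5, which guides effector lymphocytes along sphingosine-1-phosphate. S1PR5 was at 4.63, 2.5 and 2.27 in DP and at -0.63, -2.78 and -1.76 in the CD4 fraction. The difference was 4.86 (SE 0.69, 29.0-fold, or 18.3-fold with the CD4 arrays raised, adjusted p = 0.0127), and both tested probes were called. Without DP array 1 its adjusted p was 0.0620. CCR2, a receptor for monocyte-attracting chemokines, was at 1.31, 1.48 and 1.00 against -0.62, -1.08 and -0.55, a difference of 2.02 that was not called. CCR7, which brings naive and central memory cells into lymph nodes, was at 2.45, 2.72 and 2.33 in DP and at 3.68, 3.92 and 4.34 in the CD4 fraction, a difference of -1.48 (SE 0.36, adjusted p = 0.139). Every DP array of CCR7 was below every CD4 array, and the difference did not pass the threshold.

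Of the 10 tested genes of naive and quiescent T cells, none was called, and the median was -0.42, or -0.06 with array weights. DP arrays lay wholly below the CD4 arrays for 4 of the 10, beside 4.85% of all tested probes. LEF1, which drives the transcription programme of naive T cells, was at 1.62, 1.81 and 1.68 in DP and at 2.90, 3.47 and 3.61 in the CD4 fraction. That difference was -1.63 (SE 0.36, adjusted p = 0.0910), and it was -1.45 by the gene's brightest probe (adjusted p = 0.145). KLF4, a factor that holds T cells in quiescence, differed by 0.79 in the opposite direction, with overlapping arrays.

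**Figure D3:**
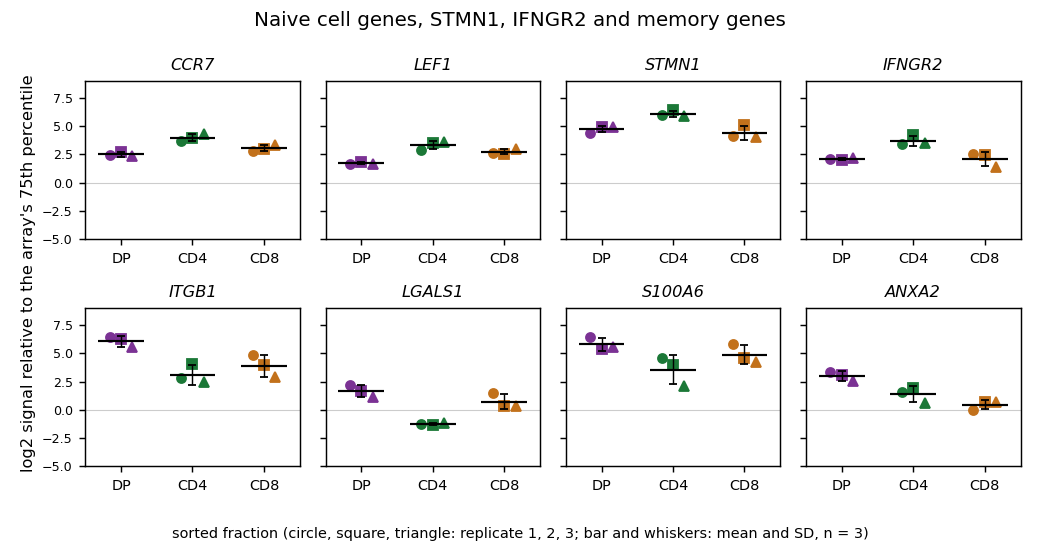
Levels on each array of the naive cell genes CCR7 and LEF1, of STMN1 and IFNGR2, and of the memory genes ITGB1, LGALS1, S100A6 and ANXA2, as log2 signal relative to the 75th percentile of its array, with means and SD (n = 3). DP points lie below all CD4 points in the upper row and above them in the lower row, and only ITGB1 and LGALS1 of the 8 were called.

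Genes that memory and effector T cells are known to carry at higher levels had differences of 0.01 to 3.25, and all 10 tested were above 0, with a median of 1.33. Of these, 1 was called by its brightest probe and 2 by any probe. Through DP alone 2 of the 10 were tested, which favours a positive difference. LGALS1, a secreted galectin, was at 2.15, 1.66 and 1.12 in DP and at -1.27, -1.38 and -1.13 in the CD4 fraction. The CD4 arrays were tightly grouped and far below. The difference was 2.90 (SE 0.47, 7.49-fold, adjusted p = 0.0198), with 1 of 2 tested probes called.

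ITGB1, the integrin beta 1 chain by which cells grip extracellular matrix, was at 6.46, 6.22 and 5.52 in DP and at 2.81, 4.07 and 2.42 in the CD4 fraction. The CD8 arrays, at 4.87, 3.93 and 2.91, lay below those of DP. The difference was 2.97 (SE 0.54, 7.81-fold, adjusted p = 0.0423) by the called probe. The gene's 6 tested probes ranged from 2.59 to 3.04, and the brightest had an adjusted p of 0.0753. LGALS1 was called with 1 of the 6 arrays left out, DP array 3, and ITGB1 with 2, DP array 3 and CD4 array 2. Adjusted p reached 0.162 for LGALS1 and 0.250 for ITGB1, both without DP array 1.

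Calcium-binding members of the same list did not pass. S100A6 was at 6.45, 5.38 and 5.54 in DP and at 4.61, 3.94 and 2.09 in the CD4 fraction, a difference of 2.24 with an adjusted p of 0.223. ANXA2, an annexin of the membrane cytoskeleton, was at 3.37, 3.11 and 2.54 against 1.61, 1.95 and 0.58, a difference of 1.62. S100A11 differed by 3.25 with an SE of 1.1, and its arrays overlapped.

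MHC class II genes, which present antigen to helper cells, were called higher in DP for 3 of 8 tested members by the brightest probe, and for 4 by any probe. The other 2 members on the array, SLA-DOA among them, were not tested, and the values of both overlapped between the fractions. Each of the 8 tested members had every DP array above every CD4 array, beside 5.3% of all tested probes. Their median was 2.18, and 1 of the 8 was tested through DP alone. SLA-DRA, the DR alpha chain, was at 7.47, 5.76 and 7.52 in DP and at 4.03, 3.76 and 4.42 in the CD4 fraction. The difference was 2.84 (SE 0.46, 7.18-fold, adjusted p = 0.0197), and 6 of its 7 tested probes were called. SLA-DRB1, a DR beta chain, was at 6.58, 4.94 and 5.97 against 3.49, 2.06 and 2.95. DP array 2 was lowest of its group for both DR chains.

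SLA-DQA1 and SLA-DQB1 encode the DQ chains. SLA-DQA1 was at 5.05, 5.0 and 4.38 in DP against 3.30, 2.02 and 2.63, with 3 of 7 tested probes called (difference 2.16, SE 0.40, adjusted p = 0.0442). Its brightest probe had an adjusted p of 0.106. SLA-DQB1 was at 6.24, 5.0 and 6.03 against 3.11, 2.22 and 2.95, a difference of 3.00 (SE 0.53, adjusted p = 0.0324), with 3 of 4 probes called. SLA-DRB1 differed by 3.00 (SE 0.58, adjusted p = 0.0494), with 1 of 4. These genes have near-identical relatives that a probe may not tell apart, so the level of each single gene is uncertain.

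The other class II members did not pass. CD74, the invariant chain that guards the peptide groove, was at 3.83, 2.76 and 2.88 in DP and at 0.97, 1.03 and 1.00 in the CD4 fraction, a difference of 2.15 (SE 0.48, adjusted p = 0.0910). SLA-DMA and SLA-DMB, which help peptides load, differed by 1.68 and 2.12. Over the 6 arrays left out in turn, SLA-DRA and SLA-DQA1 kept the call 2 times each and SLA-DRB1 and SLA-DQB1 1 time each. Each of these 4 genes lost it without DP array 1, at adjusted p of 0.149 for SLA-DRA, 0.283 for SLA-DQA1, 0.317 for SLA-DRB1 and 0.226 for SLA-DQB1. The CD4 arrays 2 and 3 also ended each of the 4 calls when left out, for example at 0.0781 and 0.0552 for SLA-DRA. The loss of CD4 array 1 did so for SLA-DRA (0.0549), SLA-DRB1 (0.0579) and SLA-DQB1 (0.0603). DP array 2 did so for SLA-DQA1 (0.161), and DP array 3 for SLA-DRB1 (0.0992) and SLA-DQB1 (0.0736).

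Markers of other cells that carry class II were measured beside these genes. The summed linear level of the 15 monocyte and granulocyte markers on the array was 11 to 17.9 in DP and 5.34 to 7.96 in the CD4 fraction, and the part of such cells in the results was not tested. Of the 6 tested markers, 3 had every DP array above every CD4 array and 0 had every DP array below. Over all tested probes these shares were 5.3% and 4.85%. The median of the 6 was 1.08. Through DP alone 2 of the 6 were tested, which favours a positive difference, and 1 through the CD4 fraction alone. FGL2 and CD86 had the largest differences of the 6. Without these 2 the sums were 2.45 to 10.5 and 3.79 to 5.75, which overlap. Leaving out the members that differ most itself draws the sums together, so this overlap decides nothing about such cells. CD163, S100A8, S100A9, TLR2, TLR4 and VCAN were above background on 0 of the 6 arrays, and CD14 on 2 of 3 in each fraction. NCF1 was above background on 2 of 3 DP and 0 of 3 CD4 arrays, and S100A12 on 1 of 3 DP and 3 of 3 CD4 arrays. CST3 differed by 1.56 and S100A12 by -1.81, and neither was called. LYZ, shown as a defining monocyte gene outside the rule for naming, differed by 0.61, and its sign turned without DP array 3. Of B cell markers, CD72 was above background on 0 of the 6, and CD79A differed by -0.22 (SE 0.60), with a sign that turned without DP array 2. The 4 B cell markers summed to 0.578 to 2.96 in DP and 1.14 to 2.37 in the CD4 fraction.

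FGL2, a secreted fibrinogen-like protein made by monocytes and by some T cells, was the 1 called gene among the 6 tested monocyte markers. FGL2 was at 2.43, 1.94 and 2.09 in DP and at 0.27, -0.10 and -1.47 in the CD4 fraction. Its difference was 2.59 (SE 0.48, 6.01-fold, adjusted p = 0.0442), with 2 of 4 tested probes called. It was called with CD4 array 1 left out and with no other, and adjusted p reached 0.277 without DP array 1. CD86, a costimulatory ligand of antigen-presenting cells, was at 1.65, 2.36 and 1.19 against -0.36, -0.33 and -1.74, a difference of 2.54 that was not called (adjusted p = 0.221), and by its brightest probe the difference was 2.68 (adjusted p = 0.162).

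**Figure D4:**
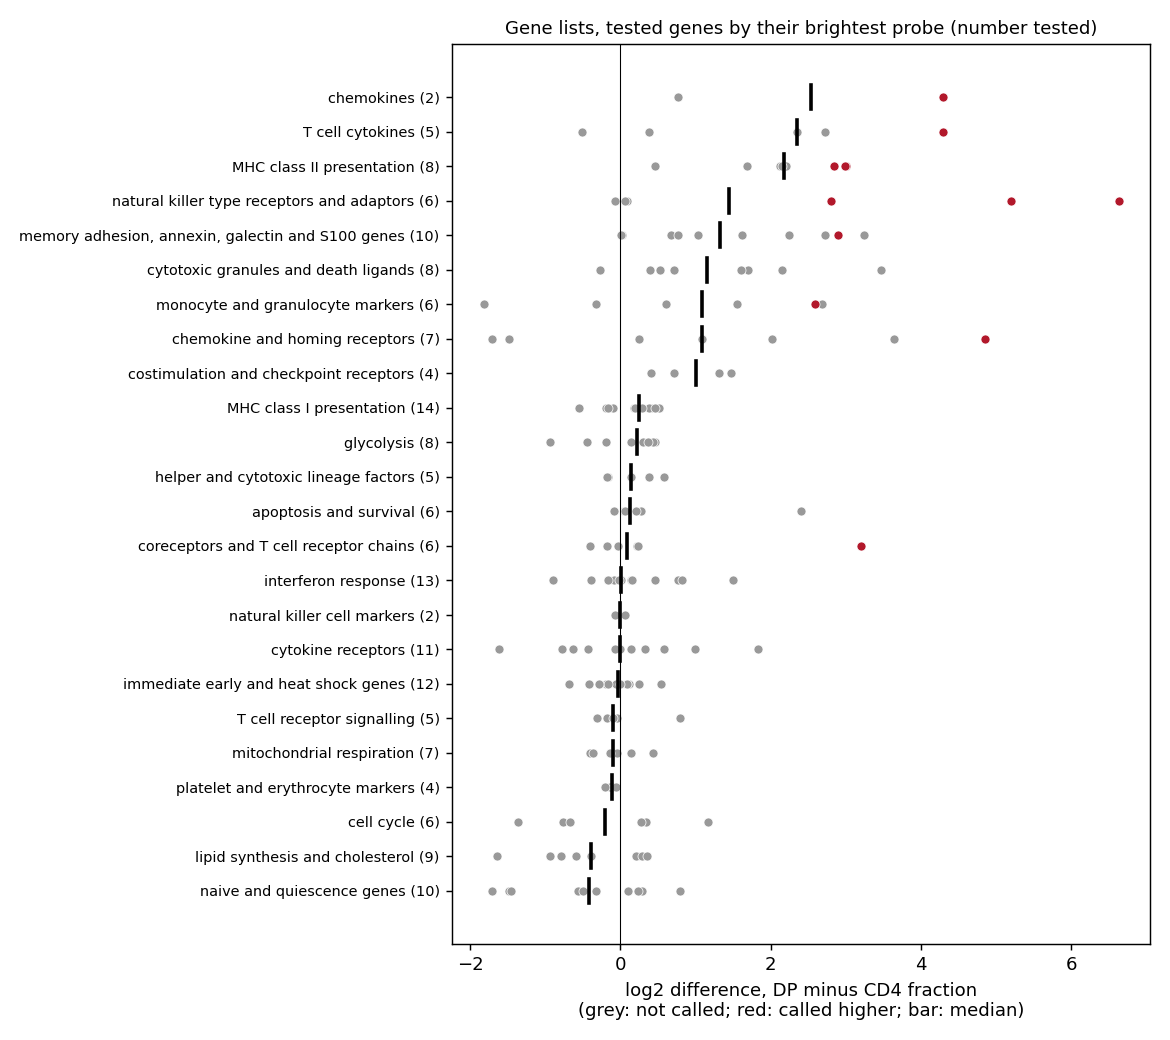
Log2 difference between DP and the CD4 fraction for the tested genes of each list with at least 2 such genes, each by its brightest probe, ordered by median. Red points were called higher, and no list holds a gene called lower by its brightest probe. Class II presentation has 3 red points and a median of 2.18, and naive and quiescence genes lie lowest with a median of -0.42.

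The 1 gene called lower was ANGPT2, a ligand of the endothelial receptor TIE2. No DP array had it well above background, and it was at 0.44, 0.20 and 0.30 in the CD4 fraction and at -0.65, 1.38 and 0.19 in the CD8 fraction. For such a gene a bound is given, which sets the brighter mean against, on each dim array, the higher of the lowest signal above background and the probe's own. ANGPT2 was at least 4.78-fold lower in DP on that measure (measured means -3.14 and 0.31, adjusted p = 0.0233). It also passed against the CD8 fraction (adjusted p = 0.0446), a comparison in which 0.148% of probes were called. The call against the CD4 fraction was lost with each of the 6 arrays left out, at adjusted p from 0.0511 to 0.118.

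A further group of genes is named because they passed only when the replicate number was a term of the fit, and none was called in the comparison as given here. With that term 0.923% of tested probes were called, 0.736% higher and 0.187% lower, and 18 genes were added, 13 higher and 5 lower. CD74, CD86, S100A6, GZMK and LEF1, described above, are among them, with adjusted p of 0.0309, 0.0364, 0.0269, 0.00792 and 0.0432 with the term. Those with higher values in DP include GBP1, an interferon-induced GTPase, at 4.44, 3.91 and 3.59 against 2.25, 2.36 and 2.11 (adjusted p = 0.0745). GBP1 differed by 1.5 by its brightest probe (adjusted p = 0.216), which did not pass with the term either. FAS, a death receptor of activated T cells, was at 2.45, 2.41 and 2.02 against -0.20, 0.38 and -0.52 (adjusted p = 0.102). RDX, which ties membrane proteins to actin, was at 6.12, 4.91 and 5.61 against 3.58, 3.82 and 3.70. In all 3 genes the arrays stood apart. VCL, a protein of adhesion sites, differed by 1.99 and by 1.69 by its brightest probe, and DMD, which encodes dystrophin, by 3.30. GPX1, an enzyme that removes peroxides, differed by 1.89, the mitochondrial carrier UCP2 by 1.94, and the lipid phosphatase PLPP2 by 3.59. All 5 had DP arrays wholly above CD4 arrays, with adjusted p between 0.0750 and 0.438. DMD and PLPP2 were each above background on 1 of 3 CD4 arrays and entered the test through DP alone. Their differences thus rest in part on signal near background.

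Of those with lower values in DP, APP, the amyloid precursor protein, was at 0.25, 1.63 and 1.04 against 2.45, 3.56 and 3.22 (difference -2.10, adjusted p = 0.0823), and it differed by -1.75 by its brightest probe (adjusted p = 0.175). AGPAT4, an acyltransferase of phospholipid synthesis, was at -3.22, -1.71 and -2.19 against 0.33, 0.02 and 0.51, with 1 DP array above background (adjusted p = 0.0745). ALDH2, a mitochondrial aldehyde dehydrogenase, differed by -1.88, or by -2.34 by its brightest probe, and the efflux transporter ABCG2 by -1.91. All 4 had DP arrays wholly below CD4 arrays.

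Genes of helper function did not pass. ICOS, a costimulatory receptor of activated T cells, was at 2.53, 3.70 and 3.16 in DP and at 1.16, 2.56 and 1.75 in the CD4 fraction. CD40LG, by which helper cells instruct B cells, was at 5.05, 4.12 and 3.19 against 2.68, 3.09 and 2.18. The ICOS arrays overlapped and those of CD40LG did not, and the differences were 1.31 and 1.47. All 4 tested costimulation and checkpoint receptors had positive differences, with a median of 1.01. Of 5 tested lineage factors, ID2 differed by 0.59 and GATA3, the type 2 helper factor, by 0.38. Within T cell receptor signalling, NFATC2 differed by 0.79, CD2 by -0.31 and the kinase LCK by -0.18, all with overlapping arrays. DP array 2 had no CD2 value, as its spot was marked as non-uniform or as an outlier. The signs of CD2 and LCK turned under some settings, CD2 without CD4 array 1 and LCK under median scaling.

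In 18 of the 26 lists no gene was called by its brightest probe. The 11 tested cytokine receptors had a median of -0.01, with IFNGR2, a chain of the interferon gamma receptor, at -1.61 and IL18R1 at 1.83. The 13 genes of the interferon response had a median of 0.01, and the 14 of MHC class I presentation a median of 0.24, with the proteasome subunit PSMB8 at 0.52. Class I presentation ranged from -0.54 to 0.52. STMN1, a microtubule-destabilising protein of dividing cells, was at 4.43, 4.89 and 4.88 in DP and at 5.97, 6.40 and 5.91 in the CD4 fraction, apart but not called (adjusted p = 0.230). In metabolism, SCD, which desaturates fatty acids, was at 1.74, 0.44 and 0.41 against 2.73, 2.33 and 2.46, and LDHB, a lactate dehydrogenase chain, differed by -0.93. The respiratory subunit COX6C differed by -0.37, and the stress gene GADD45A by -0.69. None of these was called.

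Of the called probes 29 have no gene name here, 18 higher and 11 lower, so most of what was lower in DP is unnamed. Among the unnamed probes called higher, the largest differences were in the probe A_72_P148001 and in the probe for TC526785. A_72_P148001 was at 3.39, 3.24 and 3.08 in DP and at -0.56, -3.11 and -2.0 in the CD4 fraction (difference 5.12, SE 0.67, adjusted p = 0.00766). TC526785 was not well above background on any CD4 array and was at least 11-fold higher in DP (adjusted p = 0.00116). On the lower side, none of the DP arrays had TC552998 or AK344774 well above background. TC552998 was at least 6.62-fold lower (adjusted p = 0.0441) and AK344774 at least 8.52-fold lower (adjusted p = 0.0174).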

How the data were processed

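Microarrays of 3 sorted T cell fractions of sow blood were read, 3 arrays each. Agilent Feature Extraction 11.0.1.1 read the arrays, per the submitters' processing notes. The deposited scanner files give its processed signal, a linear intensity, and the authors' series table is deposited on a log2 scale and was used as an alternative. Control and flagged spots were left out (1 to 12 an array), a probe's spots were averaged, and levels are log2 of the signal minus the array's 75th percentile. A probe was tested if well above background on all 3 arrays of DP or of the CD4 fraction, with 2 or more values per fraction. Of 43603 probes, 15.4% were named through unversioned accessions in RefSeq Sscrofa11.1, for 3052 genes, and of 15497 tested, 20.8%, for 1472 genes. Sequences were not used here, and some genes that the naming rule takes are not reported here.

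The test of DP against the CD4 fraction was limma's (version 3.58.1, R 4.3.3), by lmFit and by eBayes with its trend option, two-sided, with Benjamini-Hochberg adjustment at 0.05. All 9 arrays entered the fit, without a block. A called gene is shown by a called probe, a gene called only with the replicate block by a probe called there, and any other gene by its brightest probe. Raising CD4 arrays to their lowest signal above background was an alternative chosen after seeing the data. Figures used Python 3.11.15, matplotlib 3.10.9 and numpy 2.4.6. The fit was tested on simulated data.

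The members, the 26 gene lists and the tests were chosen with earlier results of these data known. The named genes are the sorting markers, each gene called with or without the replicate block, and up to 4 members per list, called ones first and then by smallest p. Up to 2 unnamed probes per direction were added by size. The scanner files lack the mean signal, so the normexp alternative used the median signal with the median background and an offset of 50.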

Additional observations from a re-analysis of the deposited data

How the results depend on the processing

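The 56 called probes and 15 called genes moved by over 1.5 times under some alternatives. Called probes and genes were 1 and 1 with normexp correction, 11 and 4 with the filter of all 6 arrays above background (12482 probes tested), 109 and 27 with no filter, 2 and 1 with slide as a fixed block, and 318 and 61 with array weights. The causes were not tested. Of the 56 called probes, 22 were tested under the filter of all 6 arrays, and 11 of these stayed called. With normexp, the offset of 50 was above the 75th percentile of the signal on 8 of 9 arrays. With 1 array left out, 8 to 53 probes and 4 to 15 genes were called. Apart from the replicate block, the other settings gave 40 to 56 probes, and each of the 56 kept its sign in each setting that tested it. With 1 array left out, the sign could not turn for a probe whose DP and CD4 arrays do not overlap. Median scaling moved the median difference of all probes from -0.02 to 0.16, so small differences have no settled direction.

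The labels do not say that equal replicate numbers share an animal. The deposited files of equally numbered samples carry a common code in their names, which no label explains. Same-numbered DP and CD4 arrays deviated together at r of 0.31 for replicate 1, -0.06 for replicate 2 and 0.65 for replicate 3. These values cannot settle the pairing, since the arrays of replicate 2 and those of replicate 3 also shared a slide. The samples are here taken to share only a number. The replicate block was also known to raise the count before this was decided. With the replicate block 143 probes (0.923%) and 33 genes were called, 27 higher and 6 lower, and 110 probes and 28 genes with the block on the 6 arrays alone.

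CD8A was 2.09 with normexp and 2.68 with slide as a fixed block, both not called, 1.90 within the second slide, and 2.78 to 3.53 with 1 array left out. CD4 was -0.17 with slide as a fixed block, -0.82 within the third slide, and -0.10 to 0.74 with 1 array left out, with -0.0035 without CD4 array 3. Signs of some uncalled genes turned. CD2 was 0.53 with array weights and -0.71 to 0.18 with 1 array left out. CD3D was 0.15 with median scaling, 0.43 with array weights and -0.46 to 0.19 with 1 array left out. CD3E was -0.15 with the slide block and -0.063 to 0.63 with 1 left out. CD3G was 0.0065 with median scaling and -0.33 to 0.038 with 1 left out. LCK was 0.00095 with median scaling and -0.34 to 0.042 with 1 left out. CD79A was -0.68 to 0.50 with 1 left out. LYZ was -0.062 with normexp and -0.12 to 1.19 with 1 left out. TYROBP was -0.16 with array weights and -0.53 to 0.45 with 1 left out. Genes above background on few arrays of a fraction have uncertain folds.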

Other observations

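Several list genes could not be tested because too few arrays were above background. CCL4, a chemokine made by activated T cells, was above background on 2 of 3 DP arrays, 0 of 3 CD4 arrays and 3 of 3 CD8 arrays. Its DP levels were 0.92, 1.71 and -1.32, and it was at least 5.41-fold higher than in the CD4 fraction, with no test. CTLA4, an inhibitory receptor of activated T cells, was above background on 0 of 3 DP and 2 of 3 CD4 arrays. FOXP3, the factor of regulatory T cells, was above background on 2 of 3 DP and 1 of 3 CD4 arrays and on 0 of 3 CD8 arrays. CD96, a receptor of T and natural killer cells, was above background on 0 of 6 DP and CD4 arrays and on 3 of 3 CD8 arrays, where it stood at 1.74, 2.65 and 1.36. Of 239 list genes named on the array 171 were tested, and 35 were not above background on any of the 6 arrays. These 4 genes were chosen after their values were seen.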
